A study of Mus musculus with 8 samples.

Results

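Genes that run mitosis were lower in stable Rif1 knockdown F1 embryonic stem cells than in F1 control cells. All 9 measured genes of a 10-gene set had at least 1 probe set that fell there, although 4 of them lost that call when 1 knockdown array was left out. At the brightest tested probe set of each gene, 8 of the 9 fell, against 8.16% of all 14714 tested genes. For Nusap1, which encodes a spindle microtubule-binding protein, the knockdown arrays held 51.2% of the control level at its bright probe set. A dim probe set of Nusap1 held 94.5%, and its arrays overlapped between groups. The set holds Mki67, Aurka, Aurkb, Cenpf, Nusap1, Bub1b, Ccnb1, Ccnb2, Plk1 and Top2a. Its members were all probe sets named to 1 of these symbols alone, which gave 18 of the 45101 probe sets of the array. They covered 9 genes. Ccnb1, a cyclin that activates Cdk1 at mitotic entry, had no probe set named to it alone and was not analysed here. A probe set is the group of short oligonucleotides whose brightness is summarised as 1 signal. Of the 18, 17 were bright enough to be tested, and the exception was a dim probe set of Top2a.

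The 8 arrays measured total RNA of mouse embryonic stem cells grown on feeder cells, in 4 groups of 2. J1 cells (strain 129S4/SvJae) had received Rif1 shRNA or control shRNA by lipofection and were collected after 48 h. F1 cells (C57BL/6xC3H) were a stable line at passage 16 and carried Rif1 shRNA or control shRNA. An shRNA is a short hairpin RNA that lowers the transcript it matches, here that of Rif1, a protein that acts in replication timing and at DNA breaks. The F1 control arrays name the control shRNA in 1 label and the stable knockdown line in another. No label says that arrays of 1 group came from separate cultures. The p-values therefore rest on the spread between the arrays at hand, and that spread may be technical.

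Rif1 itself was lower at all 4 of its probe sets in both settings. Its brightest probe set had signals of 1260 and 1297 on J1 Rif1 shRNA arrays against 2614 and 3222 on J1 control arrays, and 1339 and 1407 on F1 Rif1 shRNA arrays against 4231 and 4247 on F1 control arrays. Over the 4 probe sets the log2 difference lay between -1.35 and -1.08 in J1 and between -2.02 and -1.57 in F1. The probe set with -1.57 was dim in F1. It had 26.8 and 3.17 on F1 Rif1 shRNA arrays against 106.7 and 57.1 on F1 control arrays. The F1 groups differed in more than Rif1. Eif2s3y, a gene on the Y chromosome picked for this check after its values were seen, had signals of 911 and 959.8 on F1 Rif1 shRNA arrays, against 19.9 and 21.4 on F1 control arrays. On J1 Rif1 shRNA arrays it had 780.2 and 830.1, against 901 and 899.6 on J1 control arrays. Effects of the knockdown and of this difference between the F1 cells cannot be told apart.

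In a dividing cell the genes of the G2 and M phases are switched on together. B-type cyclins activate Cdk1, Polo-like and Aurora kinases build the spindle and correct its attachments, and the spindle checkpoint holds back the anaphase-promoting complex until every kinetochore is attached. Many of their promoters carry CCAAT boxes, which NF-Y binds, and a downstream element called CHR (cell cycle genes homology region), with the letters TTTGAA. The DREAM complex binds the CHR in resting cells, and complexes of MuvB with MYBL2 or FOXM1 bind it in dividing cells. Embryonic stem cells divide rapidly and express this programme strongly.

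The promoter windows of 4 members are shown because they differ in these elements although all 4 genes fell in F1. Each runs from 250 bases before to 50 after a start site of its gene, from RefSeq's annotation of GRCm38.p6. It is read 5′ to 3′ on the gene's strand. The start site used need not be the gene's outer end, which for Mki67 is at chr7:135716450. Ccnb2 is at chr9:70421505-70421804, minus strand. Plk1 is at chr7:122159185-122159484, plus strand. Mki67 is at chr7:135716330-135716629, minus strand. Nusap1 is at chr2:119618048-119618347, plus strand. Capitals mark CCAAT and the CHR letters TTTGAA or their C form TTCGAA, and the reverse complements ATTGG and TTCAAA.
Ccnb2: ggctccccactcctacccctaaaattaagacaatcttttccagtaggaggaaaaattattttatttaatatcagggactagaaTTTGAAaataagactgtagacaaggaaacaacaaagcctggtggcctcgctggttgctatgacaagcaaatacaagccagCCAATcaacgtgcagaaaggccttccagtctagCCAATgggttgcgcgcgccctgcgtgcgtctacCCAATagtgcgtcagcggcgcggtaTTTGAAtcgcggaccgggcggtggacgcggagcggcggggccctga
Plk1: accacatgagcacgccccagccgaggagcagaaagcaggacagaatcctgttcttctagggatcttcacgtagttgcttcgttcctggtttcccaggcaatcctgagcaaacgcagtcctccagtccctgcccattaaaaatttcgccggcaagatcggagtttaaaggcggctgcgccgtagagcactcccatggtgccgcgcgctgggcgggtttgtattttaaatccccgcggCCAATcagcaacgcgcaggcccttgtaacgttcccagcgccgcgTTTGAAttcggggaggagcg
Mki67: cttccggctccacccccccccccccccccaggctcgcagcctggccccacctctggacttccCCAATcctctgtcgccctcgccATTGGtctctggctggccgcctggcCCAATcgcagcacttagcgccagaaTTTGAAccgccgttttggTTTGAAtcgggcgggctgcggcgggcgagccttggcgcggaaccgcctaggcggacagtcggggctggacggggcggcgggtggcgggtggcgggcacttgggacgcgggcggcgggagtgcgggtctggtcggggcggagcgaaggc
Nusap1: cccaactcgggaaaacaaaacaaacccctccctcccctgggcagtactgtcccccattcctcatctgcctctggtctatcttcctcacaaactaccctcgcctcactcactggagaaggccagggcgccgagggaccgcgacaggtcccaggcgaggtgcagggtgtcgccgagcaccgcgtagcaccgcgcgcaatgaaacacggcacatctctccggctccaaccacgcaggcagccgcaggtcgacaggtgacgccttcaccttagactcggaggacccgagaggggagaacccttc
In Ccnb2 the CCAAT letters stood 87, 54 and 21 bases before the start, and TTTGAA stood 167 bases before it and 5 after it. Plk1 had 1 CCAAT, 14 bases before the start, and TTTGAA 31 bases after it. Mki67 had 3 CCAAT matches, 1 of them on the opposite strand, and TTTGAA 116 and 98 bases before the start. The Nusap1 window held none of these letters on either strand.

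Of the 10 genes, 9 had a window in the table used here, and that of Aurkb was not found. CCAAT was present in 8 of 9 windows, against 37.4% of all 32851 windows of the same length. TTTGAA was present in 7 of 9, against 17.9%, and TTCGAA in 2 of 9, those of Bub1b and Top2a, against 1.56%. CCAAT together with either CHR form was present in 7 of 9, against 7.52%. The windows without TTTGAA or TTCGAA were those of Ccnb1 and Nusap1. Only these 2 forms were searched, so a CHR with other letters would have been missed. Both strands were searched and the capitals of different motifs did not overlap. A match is a description of letters, not of a bound site.

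**Figure D1:**
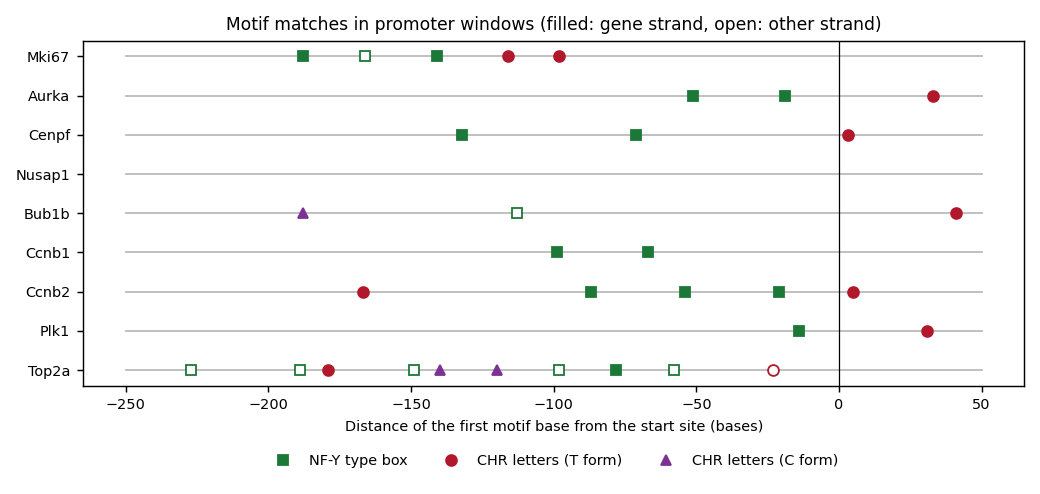
Position of motif matches in the promoter windows of 9 genes, as the distance in bases of the first motif base from the start site. Squares are CCAAT boxes, circles and triangles are the 2 CHR forms searched, and open symbols lie on the opposite strand. The line of Nusap1 is empty, and those of Ccnb2 and Mki67 each carry 3 squares and 2 circles.

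After stable knockdown in F1, 10 of the 17 tested probe sets fell and 0 rose (limma adjusted p under 0.05 over all tested probe sets). Over the whole array, 15.0% of the 31605 tested probe sets passed in F1 in either direction, and 6.78% of the 31605 passed with a lower value in knockdown arrays. Without F1 Rif1 shRNA replicate 1, 6 of the 17 passed, and no probe set of Aurka, Aurkb, Cenpf or Plk1 was among them. All 17 log2 differences were negative. Their median was -0.37, against -0.03 for all tested probe sets. On 14 of the 17, both knockdown arrays lay below both control arrays, as they did on 30.6% of all tested probe sets. In bulk RNA, fewer cells of a type and less RNA per cell cannot be told apart. Log2 differences are of log2(signal + 18) after quantile normalization, and signals are the deposited values. The offset of 18 shrinks the differences of dim probe sets.

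Markers of feeder fibroblasts moved with the F1 groups. Of 17 tested marker genes, 14 rose and 0 fell in F1, and their median log2 difference was 1.09. Of all tested genes, 10.6% rose and 8.16% fell in F1. The summed signal of these markers was 25772 and 25729.6 on F1 Rif1 shRNA arrays, against 14635 and 14933 on F1 control arrays. In J1, 3 of the 17 fell and 0 rose, where 2.17% of all tested genes fell and 1.86% rose. The summed signal of the feeder markers in J1 was 8950.1 and 9048 on Rif1 shRNA arrays, against 10714 and 10652 on control arrays. The lowest signal on any array was 1, so no marker was listed at 0. Of 10 stem cell markers, 5 fell and 1 rose in F1, and their summed signal was 43709.5 and 42818 on Rif1 shRNA arrays, against 43246 and 44756 on control arrays. The part of the feeder markers in the falls of the mitotic genes was not tested.

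**Figure D2:**
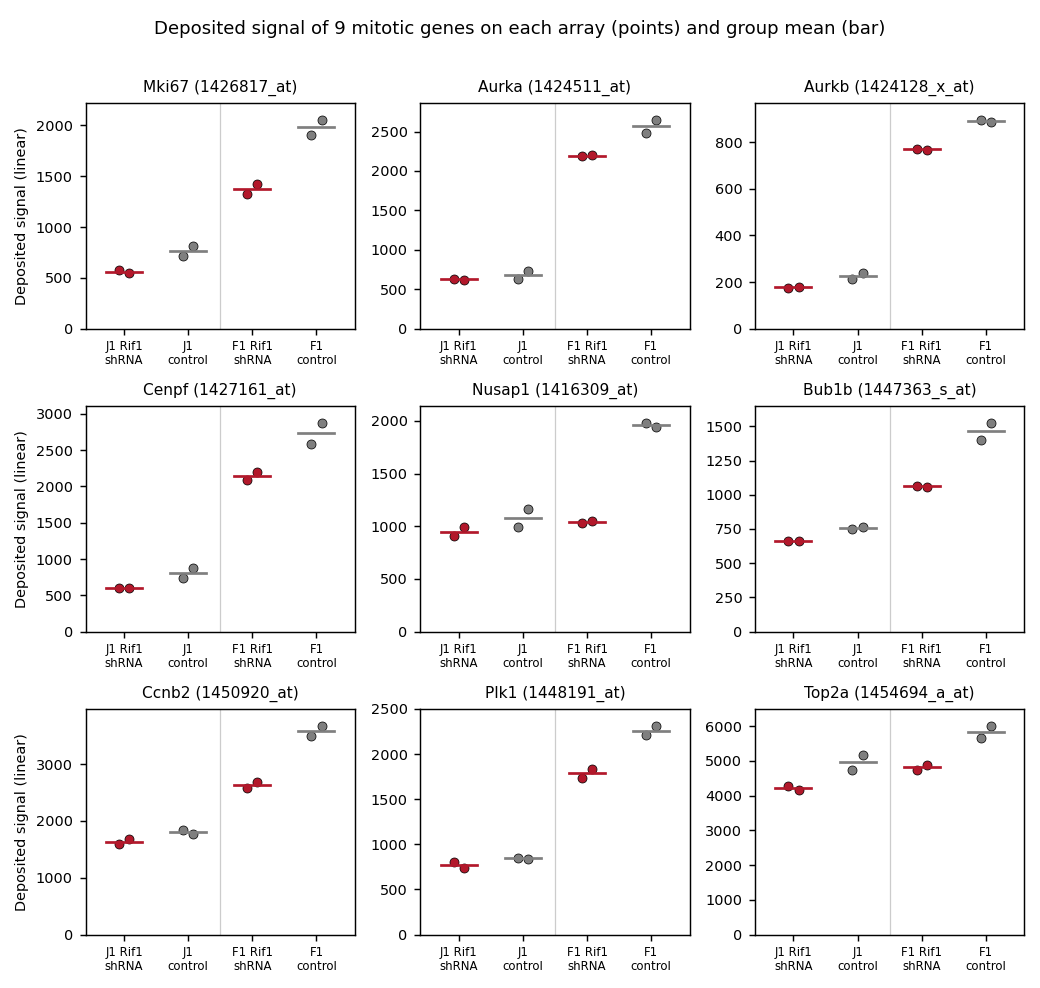
Deposited signal, on a linear scale, of 9 mitotic genes on every array, each at the probe set with the highest mean normalized level. Points are arrays and bars are means of 2 arrays, with Rif1 shRNA in red and control in grey. On all 9 panels both F1 Rif1 shRNA points lie below both F1 control points, and the Nusap1 panel has the widest F1 gap relative to its level.

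Among the kinases, Plk1 and Aurka fell in F1, and Aurkb fell at 1 of its 2 probe sets. Plk1 encodes Polo-like kinase 1, which drives centrosome maturation and cytokinesis. Its signal was 1739 and 1833 on F1 Rif1 shRNA arrays and 2206 and 2315 on F1 control arrays. The groups did not overlap, and the log2 difference was -0.38 (SE 0.07, limma adjusted p = 0.0033). Without F1 Rif1 shRNA replicate 1 this call was lost (adjusted p = 0.0600). Aurka encodes the Aurora kinase of spindle poles. It had 2185 and 2203 on F1 Rif1 shRNA arrays and 2484 and 2651 on F1 control arrays, a log2 difference of -0.26 (SE 0.08, limma adjusted p = 0.0401). That call was marginal: it was lost without any single F1 array, with an adjusted p of 0.0625 and 0.285 without control replicate 1 or 2 and of 0.232 and 0.171 without Rif1 shRNA replicate 1 or 2. A dim Aurka probe set, at 52.0 and 62.3 on F1 Rif1 shRNA arrays against 67.1 and 73.9 on F1 control arrays, did not pass (-0.22, adjusted p = 0.245).

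Aurkb encodes the kinase of the chromosomal passenger complex, which releases faulty kinetochore attachments. Its _s_at probe set had 494 and 501 on F1 Rif1 shRNA arrays and 613 and 583 on F1 control arrays (log2 difference -0.30, SE 0.09, limma adjusted p = 0.0380). Its brighter _x_at probe set had 772 and 768 on F1 Rif1 shRNA arrays and 898 and 888 on F1 control arrays, and it did not pass (-0.25, adjusted p = 0.0755). Neither probe set's groups overlapped in F1. Like Aurka, the first was lost without any single F1 array (adjusted p = 0.237 and 0.112 without control replicate 1 or 2, 0.254 and 0.170 without Rif1 shRNA replicate 1 or 2). Suffixes such as _s_at and _x_at mark probe sets whose oligonucleotides can also match related transcripts.

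Ccnb2 and Bub1b each held about 70% of the F1 control level. Ccnb2 encodes cyclin B2, a partner of Cdk1. Its signal was 2579 and 2687 on F1 Rif1 shRNA arrays and 3503 and 3679.9 on F1 control arrays. The log2 difference was -0.51 (SE 0.06, limma adjusted p = 0.000137), or 70.3% of the control level. Bub1b encodes BubR1, which inhibits the anaphase-promoting complex as part of the spindle checkpoint. Its _s_at probe set had 1065 and 1060.0 on F1 Rif1 shRNA arrays and 1404 and 1528 on F1 control arrays (-0.50, SE 0.07, limma adjusted p = 0.000424). A second bright Bub1b probe set had 1287 and 1366 on F1 Rif1 shRNA arrays and 1754 and 1920.1 on F1 control arrays (-0.51, SE 0.09, adjusted p = 0.00289). The dimmest had 162 and 172 on F1 Rif1 shRNA arrays against 230.3 and 225 on F1 control arrays and did not pass (-0.39, adjusted p = 0.0766). All 3 Bub1b probe sets thus gave F1 differences between -0.51 and -0.39.

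Of the 2 spindle and kinetochore genes, Nusap1 showed the widest gap of the set in F1. At its bright probe set, Nusap1 had 1027 and 1049 on F1 Rif1 shRNA arrays and 1983 and 1946 on F1 control arrays. The log2 difference was -0.97 (SE 0.08, limma adjusted p = 1.12e-05). A dim Nusap1 probe set had 41.1 and 47.1 on F1 Rif1 shRNA arrays against 49.8 and 45.6 on F1 control arrays, and these arrays overlapped (-0.08, adjusted p = 0.695). Cenpf encodes a large kinetochore protein that accumulates in G2. It had 2084 and 2204 on F1 Rif1 shRNA arrays and 2584 and 2881 on F1 control arrays (-0.38, SE 0.09, limma adjusted p = 0.0118). This call was lost without F1 control replicate 2 (adjusted p = 0.128) and without F1 Rif1 shRNA replicate 1 (adjusted p = 0.121). Its 2 dimmer probe sets had differences of -0.27 and -0.20 and did not pass (adjusted p = 0.413 and 0.282).

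Mki67 and Top2a, whose proteins act on the chromosomes themselves, both fell in F1. Mki67 encodes Ki-67, which coats mitotic chromosomes and marks dividing cells. Its signal was 1323 and 1423 on F1 Rif1 shRNA arrays and 1904 and 2058 on F1 control arrays, and the log2 difference was -0.57 (SE 0.07, limma adjusted p = 0.000429). Top2a encodes topoisomerase II alpha, which untangles sister DNA. It had 4745 and 4891 on F1 Rif1 shRNA arrays and 5659 and 6015 on F1 control arrays (-0.37, SE 0.05, limma adjusted p = 0.000809). A dimmer Top2a probe set had 264 and 293 on F1 Rif1 shRNA arrays against 282 and 330.4 on F1 control arrays, did not pass and overlapped between groups (-0.17, adjusted p = 0.270). The untested Top2a probe set had 31.9 and 31.8 on F1 Rif1 shRNA arrays and 29.9 and 36.5 on F1 control arrays.

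**Figure D3:**
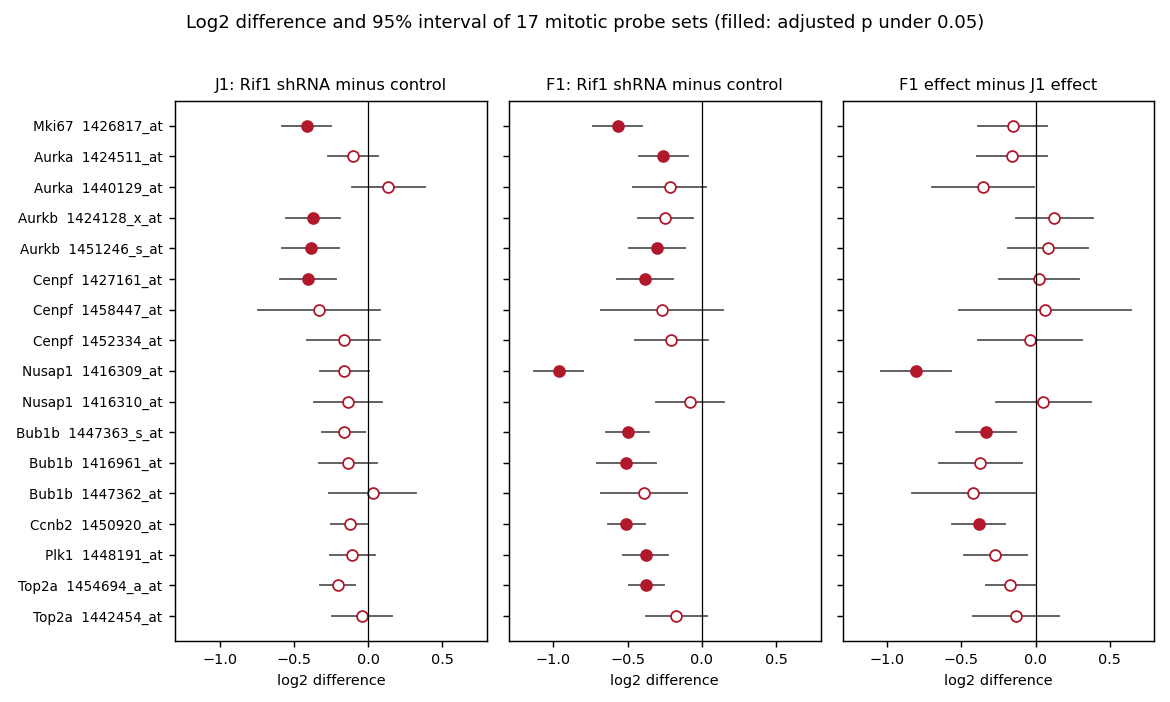
Log2 difference with its 95% interval for the 17 tested probe sets, in J1 (left), in F1 (middle) and as the F1 effect minus the J1 effect (right). Filled points passed at an adjusted p under 0.05: 4 in J1, 10 in F1 and 3 for the difference of effects.

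In J1 cells, 48 h after transfection, 4 of the 17 probe sets fell and 0 rose. They belonged to Mki67, Cenpf and Aurkb. Of all 31605 tested probe sets, 3.18% passed in J1 in either direction and 1.74% passed with a lower value. The median over the 17 was -0.16, against -0.001 for all tested probe sets, and 15 of the 17 differences were negative. On 11 of the 17 both knockdown arrays lay below both control arrays, as on 19.0% of all tested probe sets, and 1, a dim probe set of Aurka, lay above.

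Mki67 had 575 and 547 on J1 Rif1 shRNA arrays and 719 and 813 on J1 control arrays (log2 difference -0.41, SE 0.07, limma adjusted p = 0.0144). Cenpf had 598 and 594 on J1 Rif1 shRNA arrays and 735 and 881 on J1 control arrays (-0.41, SE 0.09, limma adjusted p = 0.0324). The Aurkb _s_at probe set had 216 and 207 on J1 Rif1 shRNA arrays and 288 and 262 on J1 control arrays (-0.39, SE 0.09, limma adjusted p = 0.0383). Groups did not overlap at these 3 probe sets, nor at the second Aurkb probe set. The latter had 175 and 180.2 on J1 Rif1 shRNA arrays against 212 and 239 on J1 control arrays (-0.37, SE 0.08, limma adjusted p = 0.0390). At the 2 dimmer Cenpf probe sets the J1 groups overlapped, and neither passed (-0.33 and -0.16, limma adjusted p = 0.408 and 0.506).

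Each J1 call depended on the shared estimate of spread. The median residual SD over probe sets was 0.115 among J1 arrays, against 0.0657 among F1 arrays. With the 4 J1 arrays alone, 0 of 17 probe sets passed and 5 had an unadjusted p under 0.05 (limma; Mki67 adjusted p = 0.0757, Cenpf 0.107, Aurkb 0.219 and 0.279), where 0.348% of all probe sets passed with a lower value. With the 4 F1 arrays alone 12 fell, where 12.7% of all tested probe sets passed with a lower value. With 1 array left out of all 8, fewer of these 4 passed in each case. The number was 0 without J1 control replicate 2, 3 without its partner, 3 and 1 without J1 Rif1 shRNA replicate 1 or 2, 2 without either F1 control array and 1 without either F1 Rif1 shRNA array. The actin 3′-to-5′ signal ratio, a sign of RNA quality, also differed: it was 2.18 and 2.17 on J1 Rif1 shRNA arrays, against 2.71 and 2.61 on J1 control arrays. It was 1.33 on both F1 Rif1 shRNA arrays, against 1.35 and 1.41 on F1 control arrays. Its part in the J1 falls was not tested.

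The other 6 genes did not pass in J1. Top2a came nearest, with 4286 and 4167 on J1 Rif1 shRNA arrays and 4742 and 5170.1 on J1 control arrays (-0.20, adjusted p = 0.0687). Nusap1, which led the F1 falls, had 904 and 989.8 on J1 Rif1 shRNA arrays and 992 and 1160.2 on J1 control arrays (-0.16, adjusted p = 0.314). Bub1b had 662 and 665 on J1 Rif1 shRNA arrays and 753 and 762 on J1 control arrays at its _s_at probe set (-0.17, adjusted p = 0.220). These groups did not overlap, but the gaps were narrow. Ccnb2 had 1594 and 1677 on J1 Rif1 shRNA arrays and 1845 and 1770.1 on J1 control arrays (-0.12, adjusted p = 0.292). Plk1 had 809 and 742 on J1 Rif1 shRNA arrays and 852 and 839 on J1 control arrays (-0.11, adjusted p = 0.470). Among the brightest probe sets of the 9 genes, that of Aurka alone had overlapping J1 groups, at 632 and 615 on Rif1 shRNA arrays and 624 and 735 on control arrays (-0.10, adjusted p = 0.543).

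Whether the knockdown effect itself differed between settings was tested as the F1 effect minus the J1 effect. The effect was more negative in F1 for 3 of 17 probe sets, those of Nusap1, Ccnb2 and Bub1b, where 8.33% of all probe sets passed and 3.35% did so with a more negative F1 effect. For Nusap1 the difference of effects was -0.81 (SE 0.11, limma adjusted p = 0.00102) and for Ccnb2 it was -0.38 (SE 0.08, limma adjusted p = 0.0135). The Ccnb2 call did not survive leaving out J1 control replicate 2 (adjusted p = 0.0539), and likewise F1 Rif1 shRNA replicate 1 (0.0932) or F1 control replicate 2 (0.0673). The Bub1b _s_at probe set stood at the threshold (-0.33, SE 0.09, adjusted p = 0.0497) and did not pass without any single array other than J1 Rif1 shRNA replicate 1. The other bright Bub1b probe set had -0.37 (adjusted p = 0.104). For the genes that fell in both settings the intervals were wide: Mki67 had -0.15 (95% interval -0.38 to 0.08), Cenpf 0.02 (-0.25 to 0.29) and Aurkb 0.09 (-0.18 to 0.35) at its _s_at probe set. The settings also differ in strain, delivery and time, so a difference of effects cannot be assigned to any of these.

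Levels across the 4 groups are given at each gene's brightest tested probe set. The F1 control arrays were highest for 8 of 9 genes on the normalized log2 scale, the exception being Top2a. For Aurka the group means in rising order were 9.74 in J1 Rif1 shRNA, 9.84 in J1 control, 10.70 in F1 Rif1 shRNA and 10.96 in F1 control, and only the J1 groups overlapped. Aurkb, Cenpf and Plk1 kept the same order with no overlap between neighbours. Mki67 did as well, except that J1 control (10.01) and F1 Rif1 shRNA (10.02) overlapped. At the dimmer _s_at probe set of Aurkb those 2 groups also lay close, at 8.56 (SD 0.10) and 8.61 (SD 0.02). Nusap1, Bub1b and Ccnb2 were lowest in F1 Rif1 shRNA and highest in F1 control. For Nusap1 the means were 9.61 in F1 Rif1 shRNA, 10.32 in J1 Rif1 shRNA, 10.48 in J1 control and 10.58 in F1 control, and the last 3 overlapped in turn. For Top2a they were 11.92 in F1 Rif1 shRNA, 12.28 in J1 Rif1 shRNA, 12.29 in F1 control and 12.48 in J1 control, and the middle pair overlapped. The orders of Nusap1, Bub1b, Ccnb2 and Top2a depended on the normalization. In deposited signal, Ccnb2 had a mean of 2633 in F1 Rif1 shRNA and 1635 in J1 Rif1 shRNA. Bub1b had 1062 and 664 there, and Nusap1 1038 and 947. For Top2a the deposited mean was 5837 in F1 control and 4956 in J1 control. Other probe sets of a gene also gave other orders on the normalized scale. The second bright Bub1b probe set had 9.41 in J1 Rif1 shRNA, 9.55 in J1 control, 9.97 in F1 Rif1 shRNA and 10.48 in F1 control. At the dimmest Bub1b and the dim Nusap1 probe sets, the F1 Rif1 shRNA mean was likewise above both J1 means. Levels set across J1 and F1 carry the differences of normalization, strain and RNA quality, and they were not tested.

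A wider set of 82 mitotic genes in 8 lists, of which 81 were tested, also leaned lower in F1. There 24 fell and 0 rose, with a median log2 difference of -0.16, where 18.8% of 14714 genes passed, 8.16% lower and 10.6% higher. With values as deposited, 18 fell and 2 rose. In J1, 3 fell and 1 rose, with a median of -0.07, where 4.03% of genes passed, 2.17% lower and 1.86% higher. Each gene was taken at its brightest tested probe set. The counts that follow, with 1 array left out, hold falls and rises together. The F1 count was 13 and 10 without control replicate 1 or 2, 9 and 8 without Rif1 shRNA replicate 1 or 2, and between 23 and 31 without a J1 array.

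**Figure D4:**
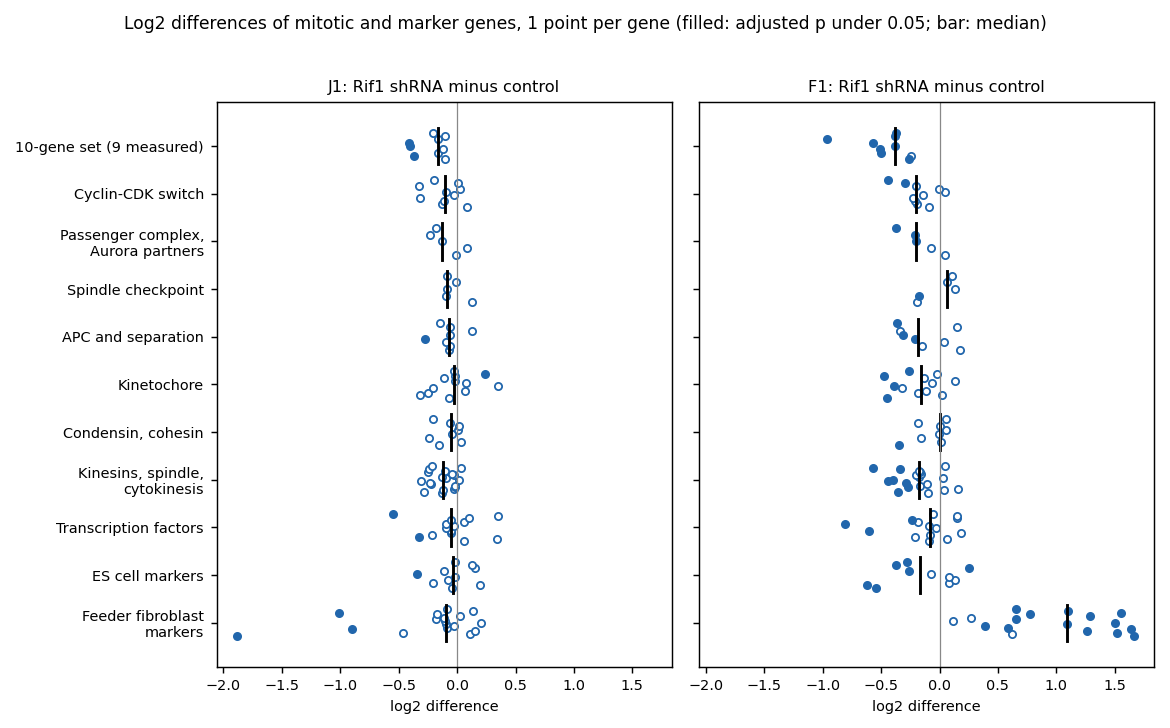
Log2 difference of every gene in the 10-gene set, in 8 mitotic lists and in 2 marker lists, in J1 (left) and F1 (right). Each point is a gene, filled where it passed at an adjusted p under 0.05, and the bar is the list's median. Feeder markers lie right of 0 in F1 at a median of 1.09, while the 9 members lie left of it at a median of -0.38.

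Of 14 transcription factor genes of the programme, 3 fell and 0 rose in F1, with a median log2 difference of -0.08. Of all genes, 8.16% fell and 10.6% rose there, and no list's count was tested against these shares. Mybl2, which encodes the B-Myb protein that activates CHR promoters, had 1778 and 1799 on F1 Rif1 shRNA arrays and 2963 and 3074 on F1 control arrays. Its log2 difference was -0.81 (SE 0.06, limma adjusted p = 1.07e-05) in F1 and -0.10 (adjusted p = 0.478) in J1, and the difference of effects was -0.71 (adjusted p = 0.000731). Lin52, a MuvB subunit, had -0.61 (adjusted p = 0.0212) and Nfyb, a subunit of NF-Y, -0.23 (adjusted p = 0.0428). Foxm1 had 125 and 135 on F1 Rif1 shRNA arrays and 148 and 126 on F1 control arrays, which overlapped (-0.08, adjusted p = 0.757); it was named after its values were seen. In J1, E2f8, an atypical E2F that represses cell cycle genes, fell by 0.32 on the log2 scale (adjusted p = 0.0266). It fell there at 1 of its 2 tested probe sets. Rbl2, the p130 pocket protein of DREAM, fell by 0.55 on the log2 scale in J1 (adjusted p = 0.0424) at a dim probe set. Its relative Rbl1 had 0.35 in J1 (adjusted p = 0.0895) and 0.15 in F1 (adjusted p = 0.392).

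On the kinetochore list 4 of 12 fell in F1, against 8.16% of all genes. Spc24, a subunit of the NDC80 complex, had 1119 and 1104 on F1 Rif1 shRNA arrays and 1459 and 1562 on F1 control arrays (-0.48, limma adjusted p = 0.000578). Its complex partner Spc25 had -0.02 in F1 (adjusted p = 0.891) and rose in J1, with 1557 and 1689 on Rif1 shRNA arrays against 1349 and 1354 on control arrays (0.24, adjusted p = 0.0429). This J1 rise held at 1 of the 2 tested Spc25 probe sets. Cenpa, the centromeric histone H3 variant, had -0.45 in F1 (adjusted p = 0.0018) and Zwilch -0.26 (adjusted p = 0.0106). Knstrn, a spindle and kinetochore adaptor, had -0.39 in F1 (adjusted p = 0.0155) and 0.35 in J1 (adjusted p = 0.0686), a difference of effects of -0.74 (adjusted p = 0.0057). Differences of effects also passed for Spc24 (-0.46, adjusted p = 0.0115) and Cenpa (-0.38, adjusted p = 0.0470). Cenpe, a kinetochore motor, had -0.31 in J1 and 0.02 in F1, and neither passed.

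On the list of kinesins, spindle and cytokinesis genes, 7 of 19 fell in F1, against 8.16% of all genes. Racgap1, part of the centralspindlin complex, had 1028 and 984 on F1 Rif1 shRNA arrays and 1432 and 1483 on F1 control arrays (-0.57, limma adjusted p = 0.000466). In J1 it had 0.03 (adjusted p = 0.865), and the difference of effects was -0.60 (adjusted p = 0.0058). Kif11, the kinesin that pushes spindle poles apart, had -0.44 (adjusted p = 0.00577) in F1. Kif11 fell at all 3 of its tested probe sets, but other list genes fell in F1 at fewer of theirs. Racgap1, Mybl2, Lin52, Nfyb, Cenpa, Wee1, Pkmyt1 and Ncapd2 each fell at 1 of 2. Hmmr and Knstrn fell at 2 of 5, Bub3 and Tpx2 at 1 of 4, Cdca8 at 1 of 3 and Incenp at 1 of 5. Hmmr had -0.29 (adjusted p = 0.0119), and the others that fell were Kif18a, Prc1, Ckap5 and Aspm, between -0.40 and -0.27. Ect2, the exchange factor that Racgap1 binds in cytokinesis, had -0.22 in J1 (adjusted p = 0.0578) and -0.11 in F1 (adjusted p = 0.252).

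Some partners of the member kinases and cyclin also fell in F1, where 8.16% of all genes fell. Of 5 passenger complex and Aurora partner genes, Tpx2, the activator of Aurka, had -0.37 (adjusted p = 0.00286), and Incenp and Cdca8, which bind Aurkb, had -0.21 and -0.20 (adjusted p = 0.0330 and 0.0245). On the cyclin and Cdk list 2 of 10 fell, Wee1 (-0.44, adjusted p = 0.0050) and Pkmyt1 (-0.30, adjusted p = 0.0464), and both encode kinases that inhibit Cdk1. Cdk1 itself had 5308 and 5457 on F1 Rif1 shRNA arrays and 5536 and 5816 on F1 control arrays (-0.14, adjusted p = 0.0893). Cdc25c (-0.23), a phosphatase that activates Cdk1, and Mastl (-0.20), a kinase that protects its substrates from dephosphorylation, did not pass in F1 at their brightest probe sets, although the second probe set of Cdc25c fell.

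Of the other checkpoint, separation and condensin genes, 5 fell in F1, where 8.16% of all genes fell. The median log2 difference was 0.06 on the checkpoint list, 0.0006 on that of condensin and cohesin and -0.18 on that of separation. On the checkpoint list 1 of 5 fell in F1, Bub3 (-0.18, adjusted p = 0.0402), while the kinase genes Bub1 and Ttk had -0.19 and 0.11 and did not pass. On the list of the anaphase-promoting complex and sister separation, 3 of 8 fell in F1. These were Ube2c, its ubiquitin-conjugating enzyme (-0.36, adjusted p = 0.00348), its inhibitor Fbxo5 (-0.31, adjusted p = 0.0414) and Espl1, which encodes separase (-0.21, adjusted p = 0.0376). Espl1 fell in J1 too (-0.28, adjusted p = 0.0348). Cdc16, a subunit of the anaphase-promoting complex, had 0.17 in F1 (adjusted p = 0.0671). Of 8 condensin and cohesin genes, Ncapd2 fell in F1 (-0.34, adjusted p = 0.00291), whereas Ncaph, Smc3 and Smc4 had -0.16, -0.18 and 0.06 and did not pass. The 4 J1 calls on these lists, those of Espl1, E2f8, Rbl2 and Spc25, were lost without any single array other than J1 Rif1 shRNA replicate 1.

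CCAAT together with TTTGAA or TTCGAA was found in 13 of the 18 windows of list genes that fell in F1. It was found in 21 of the 47 windows of those that did not pass. Windows were found for 65 of the 81 genes, and these counts were not tested.

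The mean of the 9 genes followed a common course over the 8 arrays. After the mean of each setting was subtracted, each member's correlation with the mean of the other 8 lay between 0.814 for Aurkb and 0.995 for Top2a (Pearson, 8 arrays). Among genes outside the lists, the most alike in course were Ccdc43 (0.997), the zinc transporter gene Slc39a1 (0.994), Ndufaf7 (0.993), a complex I assembly factor, Prmt3 (0.992), an arginine methyltransferase, Mga (0.991), a repressor of germline genes, and the kinase anchor gene Akap12 (0.991). Each of the 6 was lower in F1, by differences between -0.55 and -0.26 (limma adjusted p between 0.000302 and 0.00855), as such a ranking requires. These correlations describe arrays that share 2 contrasts and carry no p.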

How the data were processed

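Total RNA, taken with Trizol and biotin-labelled, was measured on Affymetrix mouse arrays, per the labels' protocols. The deposited values are intensity signals on a linear scale, 1 per probe set and array. MAS5 made them, per the submitters' processing notes. The members and gene lists were chosen with earlier results of these data known.

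Array means trimmed by 2% were 193 to 197 in J1 and 301 to 309 in F1, so log2(signal + 18), with 18 the 10th percentile, was quantile normalized over 8 arrays. Leaving aside 64 control probe sets, those exceeding an array's 40th percentile on 2 or more arrays were tested (31605). Replicate arrays correlated at 0.991 to 0.997. Group means were fitted with limma 3.58.1 in R 4.3.3, with an intensity trend in eBayes, 4 residual degrees of freedom, two-sided, with Benjamini-Hochberg adjustment over all tested probe sets and a threshold of 0.05. The fit was tested on simulated data for the recovery, size and direction of known changes. That check set no limit on the share of false calls. The number of arrays limits the precision.

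Gene names came from the platform annotation; 34945 probe sets had 1 symbol, 932 several and 9160 none here. Of those with 1 symbol, 34754 matched RefSeq, and no gene was named from a probe set with several. List genes named are the up to 3 with the smallest p per list and setting, and likeness was ranked over all genes outside the lists. Kif18a, Prc1, Ckap5, Aspm, Foxm1, Eif2s3y and the other genes behind a count were named after their values were seen. The alternatives changed the offset, filter, scaling, estimate of spread, threshold or block, or left out 1 array. Figures were drawn with matplotlib 3.10.9.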

Additional observations from a re-analysis of the deposited data

Results flagged for a closer look

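At 3 probe sets the knockdown effect differed between F1 and J1 by a test of the difference itself. For Nusap1 the F1 effect minus the J1 effect was -0.81 (limma adjusted p = 0.00102). For Ccnb2 it was -0.38 (adjusted p = 0.0135), and for Bub1b, at its _s_at probe set, -0.33 (adjusted p = 0.0497). The Nusap1 difference passed in 22 of 22 alternatives, that of Ccnb2 in 17 of 22 and that of Bub1b in 6 of 21. A second, dim Nusap1 probe set had a difference of effects of 0.05 (adjusted p = 0.881). The F1 groups also differed in feeder markers and Y-linked signal, whose part was not tested.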

How the results depend on the processing

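No member probe set changed direction past the threshold under any alternative. Direction was not followed for every list gene. The F1 list calls, 24 lower and 0 higher, became 34 lower and 2 higher with only the 4 F1 arrays. Of the 4 J1 member calls, 2 passed with no filter on dim probe sets, 2 without _x_at and _s_at probe sets, 1 with arrays scaled to a common median, and 0 with no intensity trend, with only the 4 J1 arrays, with array weights or at a threshold of 0.01; without 1 array the count was 0 to 3. The 10 F1 member calls became 6 to 12 without 1 array (6 without F1 Rif1 shRNA replicate 1). The 3 differences of effects became 1 with a common median, 1 with no trend and 1 at 0.01, and 1 to 3 without 1 array. The 4 J1 pathway calls became 0 with a common median, no trend, own arrays, array weights or 0.01, and 12 at 0.10, with 0 to 7 without 1 array. The 24 F1 pathway calls became 11 with a common median, 11 with no trend, 42 with array weights (38 lower, 4 higher), 9 at 0.01, and 8 to 31 without 1 array. The median over member genes stayed between -0.26 and -0.15 in J1 and between -0.47 and -0.34 in F1 without 1 array.

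The deviations of same-numbered arrays correlated at -0.34 in J1 and 0.19 in F1, and whether such arrays pair was not tested. With the replicate number as a block, 2 member probe sets passed in J1, 8 in F1 and 2 for the difference, and 0 and 17 pathway genes passed in J1 and F1. With the J1 pairing crossed, a choice added after seeing the data, these were 5, 11, 3, 8 and 26. The counts over all probe sets moved too: 1005 in J1 became 227 to 1769, 4753 in F1 became 1842 to 6208, and 2634 for the difference became 1010 to 3995 without 1 array. Other alternatives gave 231 to 1907 in J1, 2584 to 9043 in F1 (8140 with only its own arrays) and 1132 to 4053 for the difference. With a common median the difference had 731 lower and 1840 higher calls, against 1060 and 1574. The causes were not tested. Signal limits the second Nusap1 probe set, at 41.1 to 49.8 on the F1 arrays, near the offset of 18.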
